A study of Mus musculus with 6 samples.

Results

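A set of 164 genes was lower in non-stress 2 and non-stress 3 than in each of the other 4 libraries in RNA sequencing data from the anterior cingulate cortex, which lies at the midline of the frontal brain. The genes were chosen from the measured values. CPM, the count scaled to the library's total, served as the level, and a member had a mean count of at least 100 over the 6 libraries. Its lowest CPM among non-stress 1 and the 3 stress libraries also had to be at least 1.5 times its highest CPM in non-stress 2 and non-stress 3. The members were 164 of 45777 genes in the table and 1.21% of the 13559 genes with that mean count. The opposite rule, with both libraries at least 1.5 times above all 4 others, was met by 2 genes, Gbp4 and Rcan2. A further gene, Gm20716, was left out because it met the rule only as 0 against 0.

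All 6 libraries came from BALB/c mice, an inbred laboratory strain. The 3 stress libraries are from mice given 5 days of social defeat, in which an aggressive mouse repeatedly defeats the test mouse, and the 3 non-stress libraries are from mice spared it. The labels give no age, sex or batch and do not tie libraries to separate animals, so p-values reflect the spread between these libraries alone, possibly a technical one. The members cross the labelled groups, because the rule sets 1 non-stress library with the stress libraries. They are described here by gene class and sequence rather than as a response to stress.

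Zinc finger genes, long noncoding RNAs and genes for some coiled-coil proteins are among the members. C2H2 zinc finger proteins bind DNA through a row of small folds that each hold a zinc ion, and many of them, with a KRAB domain, silence transposable elements; their genes lie in clusters of recent copies that differ between mouse strains. Coiled-coil proteins are long helices that wind around each other and serve as scaffolds of centrosomes, cilia, the Golgi and the nuclear pore. Both kinds of protein are rich in lysine, whose codons are AAA and AAG, so their coding sequences can be rich in A.

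Totals were 41623899 to 47212982 counts per library, and TMM factors lay between 0.996 and 1.00. Neuron markers summed to 9431 to 9777 CPM, astrocyte markers to 1430 to 1502 CPM and microglia markers to 416 to 442 CPM over the 6 libraries, so markers of brain cells were present in every library. Oligodendrocyte markers summed to 6038, 7495 and 7321 CPM in non-stress 1, 2 and 3 and to 6718, 6639 and 7180 CPM in stress 1, 2 and 3, which puts non-stress 2 and 3 highest. Messenger RNA of the mitochondrial genome took 2.40%, 1.76% and 2.36% of all counts in non-stress 1, 2 and 3, while the shares in stress 1, 2 and 3 were 2.67%, 2.53% and 2.51%. The part of oligodendrocyte content or of mitochondrial RNA in the members' values was not tested. In bulk tissue, fewer cells of a type and less RNA per cell cannot be told apart.

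The 4 genes that define the pattern as examples all carry stretches of coding sequence crowded with A. Ccdc88a encodes girdin, a coiled-coil protein that binds actin and membranes. Ankrd12 encodes an ankyrin repeat protein of the nucleus that binds chromatin regulators, Cep290 a protein of the ciliary transition zone, and Atrx a chromatin remodeller of the SNF2 family. The lines below give, for each, the 60 bases of a single coding exon with the most A, with runs of 4 or more A in capitals, together with those of Esf1, a nucleolar gene with the highest share of lysine codons among the coding members, and of Zfp292, a long zinc finger gene. Ngb, which encodes the globin neuroglobin and whose coding sequence is 19.1% A, is among the members lowest in coding A and is shown as an extreme. Sequences are from the GENCODE M21 transcripts of GRCm38, on the strand of the transcript.
Ccdc88a, chr11:29463746-29463805, plus strand: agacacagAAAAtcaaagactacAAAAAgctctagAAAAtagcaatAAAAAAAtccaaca
Ankrd12, chr17:65986979-65987038, minus strand: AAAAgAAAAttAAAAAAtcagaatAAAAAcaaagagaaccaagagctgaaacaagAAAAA
Cep290, chr10:100543353-100543412, plus strand: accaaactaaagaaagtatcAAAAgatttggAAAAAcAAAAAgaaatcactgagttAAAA
Atrx, chrX:105874734-105874793, minus strand: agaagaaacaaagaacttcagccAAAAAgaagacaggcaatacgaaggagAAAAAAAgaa
Esf1, chr2:140168067-140168126, minus strand: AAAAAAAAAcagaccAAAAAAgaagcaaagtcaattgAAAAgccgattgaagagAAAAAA
Zfp292, chr4:34806843-34806902, minus strand: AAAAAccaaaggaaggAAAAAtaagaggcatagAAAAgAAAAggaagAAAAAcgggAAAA
Ngb, chr12:87100033-87100092, minus strand: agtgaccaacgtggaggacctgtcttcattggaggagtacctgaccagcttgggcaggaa
A made up 58.3% of the window of Cep290, 60% of those of Ccdc88a and Atrx, 63.3% of that of Esf1, 65.0% of that of Zfp292 and 68.3% of that of Ankrd12, against 25% in Ngb. With exon borders ignored, the 60 coding bases with the most A held a median of 51.7% A in members. In coding genes with a mean count of at least 100 the median was 43.3%, with a 5th percentile of 31.7% and a 95th of 56.7%. Ngb, at 28.3% on that measure, is thus not a typical gene.

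Ccdc88a (chr11:29373405-29510808, GRCm38) stood at 119, 21.5 and 25.3 CPM in non-stress 1, 2 and 3 and at 125, 123 and 135 CPM in stress 1, 2 and 3. Non-stress 2 and 3, called the low pair from here on, were apart from the rest, as the rule requires of every member. Non-stress 1 lay just under the stress libraries, whose mean was 127 ± 6.38 CPM (SD, n = 3). The mean of the 4 high libraries was 5.35 times that of the low pair. Ankrd12 (chr17:65965703-66078804) had 169, 39.5 and 47.2 CPM in the non-stress libraries and 177, 176 and 183 CPM in the stress libraries, a ratio of 4.06. Again non-stress 1 sat slightly below stress and far above the low pair.

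For Cep290 (chr10:100487548-100575671) the values were 21.2, 5.32 and 5.17 CPM in non-stress and 24.2, 22.9 and 23.5 CPM in stress, 4.37-fold apart. Atrx (chrX:105797615-105929372) differed less, with 190, 76.3 and 87.2 CPM in non-stress and 188, 183 and 185 CPM in stress, a ratio of 2.28. Its non-stress 1 value was the highest of the 6. The coding sequences of Ccdc88a, Ankrd12, Cep290 and Atrx held 38.5%, 36.6%, 39.9% and 35.9% A.

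Over all 164 members the gap ratio, the lowest of the 4 high libraries over the higher of the low pair, ran from 1.5 to 9.08 with a median of 1.87. It was at least 2 in 68 members and at least 3 in 20. Just inside the threshold lay Pcdh15 (1.5002), Gucy1a2 (1.502) and Il1rapl2 (1.504), and just outside lay Rock2 (1.499), Egfem1 (1.494) and Esco1 (1.493), so the border is not a natural break. The mean of the 4 over the mean of the low pair had a median of 2.26. Members were mostly low genes, with a median mean level of 9.94 CPM against 26.5 CPM over the 13559 genes. Depth was nevertheless ample for most: the lower of the counts in non-stress 2 and 3 had a median of 207. Members took 0.662% of the counts in non-stress 1, 0.293% and 0.345% in non-stress 2 and 3, while stress 1, 2 and 3 gave them 0.664%, 0.656% and 0.668%.

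The low pair was not uniform, since non-stress 2 was below non-stress 3 in 117 of 164 members, with a median ratio of non-stress 3 to non-stress 2 of 1.11. Relative to the mean of the 6 libraries, the members' median lay at log2 values of 0.29, -0.98 and -0.80 in non-stress 1, 2 and 3 and of 0.30, 0.31 and 0.29 in stress 1, 2 and 3. The 13559 genes had medians within 0.01 of 0 in every library. Non-stress 1 lay inside the range of the stress libraries in 69 members, above it in 43 and below it in 52, and within 1.2-fold of the stress mean in 145. It was more than 1.2-fold above that mean in 11 members, among them Zfp934, Gfap, Calb1, Atr, Ngb and Wfs1, and more than 1.2-fold below it in 8, among them Tex47, Zfp982, Zfp975, Pomc and Gh.

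**Figure D1:**
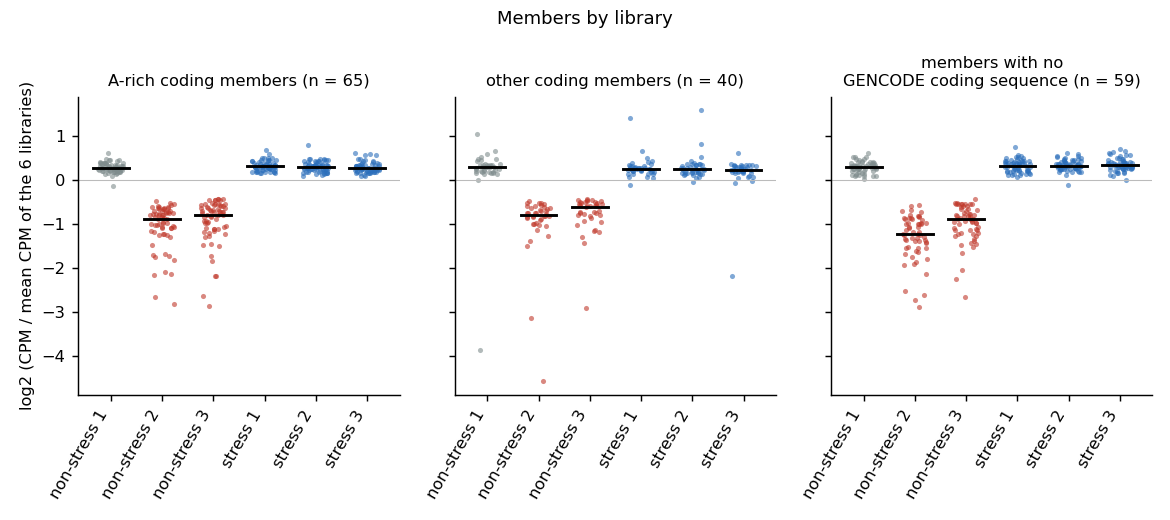
Each point is 1 member; the vertical axis is the log2 ratio of its CPM to its mean over the 6 libraries, split into 65 coding members with A-rich coding sequences, 40 other coding members and 59 members with no GENCODE coding sequence, and bars mark medians. The rule that chose the genes sets non-stress 2 and 3 low, and non-stress 1 above them, in all 3 panels. Gh in non-stress 3, at 0 counts, is not drawn.

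Against the labelled groups, the members fell on the side of stress because 2 of the 3 non-stress libraries are the low pair. In edgeR's quasi-likelihood test of stress against non-stress with Benjamini-Hochberg adjustment, 0 of 164 members had an adjusted p under 0.05, where 0.0052% of the 19227 genes tested did. An unadjusted p under 0.05 with a higher level in stress was found for 108 members, where 5.8% of genes tested had one. DESeq2 called 2 members, the ciliary gene Sclt1 (adjusted p = 0.0397) and the zinc finger gene Zfp975 (adjusted p = 0.0287), both higher in stress, where it called 0.312% of genes tested in that direction. It gave no adjusted p to 7083 of the 19227 genes, among them members such as Tex47, Zfp982 and Gh, so these could not be called. All 3 stress libraries lay above all 3 non-stress libraries in 52 members, where 8.33% of the 13559 genes did. The members' median log2 fold change was 0.67, against a median of -0.00 over all genes tested. Without non-stress 1, all 164 members were called higher in stress by edgeR, where 2.94% of genes tested were, which is close to the contrast that chose them. The rule used these same values, so nothing is read from the counts.

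The composition of the coding sequence, which the rule did not use, differed between many members and other genes. Of the members, 128 had a GENCODE M21 transcript and 105 a coding sequence, and they are set beside 12313 coding genes with the same mean count. The members' median A content was 35.1%, with the middle 50% of members between 29.7% and 37.8%, and that of the coding genes was 25.4%, between 22.2% and 28.6%. Median GC content of the coding sequence was 41.1% in members and 53.2% in the coding genes. Codons for lysine made up 8.97% of a median member and 5.61% of a median coding gene, and the AAA codon alone 5.71% and 2.01%.

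Median transcript length was 3363 bases in members and 2952 in genes at large, and the median 3' untranslated region was 998 bases in members and 1013 in coding genes, nearly the same. Coding sequences were longer, with medians of 2064 and 1410 bases. The longest coding exon was 1077 bases in a median member and 286 in a median coding gene, and 635 in a median member once genes with repeated zinc fingers were left out. A coding exon of over 1000 bases was present in 56 of 105 members (53.3%) and in 14.6% of coding genes; without the zinc finger genes it was 38.4% and 13.2%. The longest run of A in the coding sequence had a median of 6 bases in members and 5 in coding genes, a small difference beside that in A content.

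The share of genes that were members did not rise steadily below 28% A and was higher in each bin above that. Below 22% A, 7 of 2856 coding genes were members (0.245%). Between 22% and 25% it was 2 of 2844 (0.0703%), and between 25% and 28% it was 8 of 2967 (0.270%). From 28% to 31% the count was 15 of 2195 (0.683%), from 31% to 34% it was 12 of 1000 (1.2%), and from 34% to 37% it was 26 of 331 (7.85%). At 37% or more, 35 of 120 genes were members (29.2%). The median log2 ratio of the 4 libraries to the low pair, over all genes in a bin, went from -0.08 below 22% A through -0.01 at 25% to 28% A to 0.43 at 37% or more.

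Taking as A-rich the 616 coding genes above 33.2% A, the 95th percentile, 65 of 105 coding members were A-rich (61.9%). That threshold was set after seeing the data. Members made up 10.6% of A-rich genes and 0.342% of the 11697 others. The 551 A-rich genes that are not members leaned the same way to a smaller extent: their library medians were 0.04, -0.13 and -0.04 on the log2 scale in non-stress 1, 2 and 3, with 0.05, 0.05 and 0.02 for stress 1, 2 and 3. In 259 of them (47%) all 4 libraries lay above both of the low pair, by any amount, where 15.1% of the 13559 genes did. The libraries were made with a kit that starts complementary DNA at stretches of A, and the part of that step in the pattern was not tested.

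**Figure D2:**
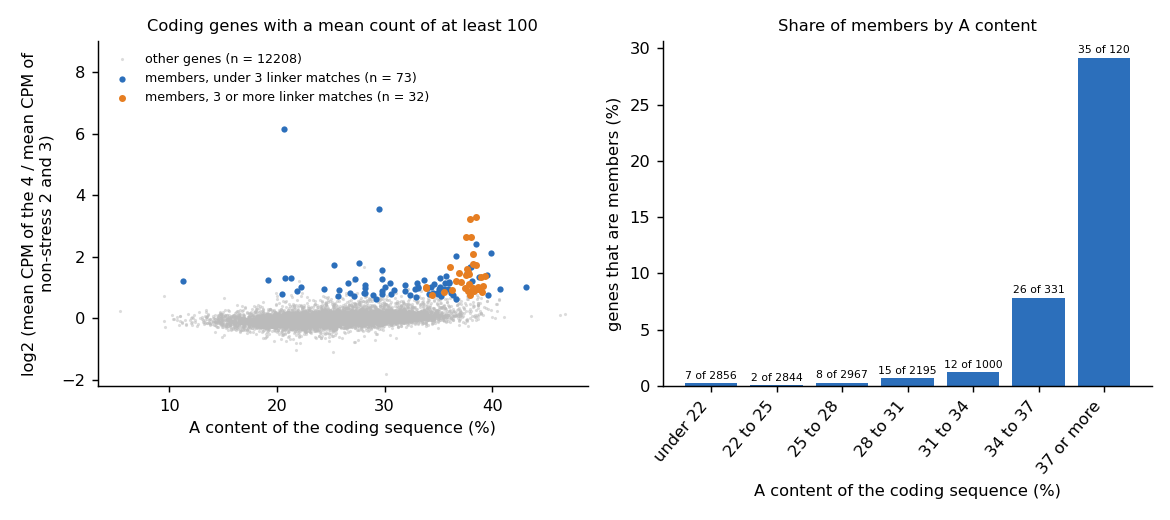
Left, each point is 1 of the coding genes with a mean count of at least 100, with the A content of its coding sequence in percent on the horizontal axis and the log2 ratio of the mean CPM of the 4 libraries to that of non-stress 2 and 3 on the vertical axis; right, bars give the percentage of genes in each bin of A content that are members. Members gather at high A content, from 7 of 2856 genes below 22% A to 35 of 120 at 37% or more.

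Zinc finger genes formed a large class among the coding members. Tandem C2H2 fingers are joined by a conserved linker peptide, and the coding strand was searched for the letters ACNGGNGANAANCC, which can encode it, with overlapping matches allowed and the reverse strand not searched. At least 3 matches were found in 32 of 105 coding members (30.5%) and in 245 of 12313 coding genes (1.99%), with no matching for length. Of the 32, 20 have Zfp names and 12 do not (Gm7072, BC024063, Gm14325, Gm5141, Gm14391, Gm4924, Gm14410, AU041133, Gm3055, Platr25, Gm6710 and Gm14326). A match describes letters and does not show a working finger. Members were 13.1% of the 245 genes with such repeats.

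Within that class the members were again rich in A, but most A-rich genes of the class were not members. All 32 were among the 111 genes with repeats that are A-rich (28.8%), and 0 of the 134 others were members. The 79 A-rich genes with repeats that are not members had a median gap ratio of 1.08. The median A content of the coding sequence was 37.8% in the 32 and 31.8% in the rest of the class. The lines below give 84 bases of 1 finger repeat, the one with the most A in each gene, from 3 members with large gaps and from Zfp612, a gene of the same class that is not a member, with the linker match in capitals.
Zfp758, chr17:22375732-22375815, plus strand: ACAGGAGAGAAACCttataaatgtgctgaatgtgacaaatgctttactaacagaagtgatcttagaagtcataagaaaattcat
Zfp994, chr17:22200176-22200259, minus strand: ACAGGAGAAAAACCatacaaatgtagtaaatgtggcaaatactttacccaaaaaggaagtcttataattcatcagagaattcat
Zfp982, chr4:147512812-147512895, plus strand: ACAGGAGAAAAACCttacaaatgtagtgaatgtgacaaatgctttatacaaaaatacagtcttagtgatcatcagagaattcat
Zfp612, chr8:110089156-110089239, plus strand: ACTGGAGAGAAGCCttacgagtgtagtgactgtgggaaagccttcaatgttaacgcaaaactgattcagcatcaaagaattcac
The repeats held 41.7% A in Zfp758, 45.2% in Zfp994, 42.9% in Zfp982 and 34.5% in Zfp612. Zfp612 was taken for its high mean CPM. Its coding sequence, at 29.4% A, is not A-rich, so it does not stand for the A-rich genes of the class that are not members.

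Zfp758 had 7.82, 1.36 and 1.31 CPM in non-stress 1, 2 and 3 and 8.26, 8.31 and 8.93 CPM in stress 1, 2 and 3. Zfp994 had 11.3, 1.84 and 1.81 CPM in non-stress and 10.5, 11.4 and 12.4 CPM in stress. Both were 6.25-fold lower in the low pair, whose values were nearly equal. Zfp982 was lower still, at 0.381 and 0.429 CPM in non-stress 2 and 3, which is 18 counts in each, but its non-stress 1 value of 2.44 CPM was also below the 4.08, 4.65 and 4.14 CPM of the stress libraries. Zfp612 lay between 85.8 and 90.0 CPM in all 6 libraries.

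The zinc finger members are mostly of low abundance. Zfp934, at 4.76, 1.29 and 1.12 CPM in non-stress and 4.20, 3.45 and 3.72 CPM in stress, and Zfp991, at 4.34, 0.890 and 1.12 CPM and 4.11, 4.40 and 4.10 CPM, are examples. Zfp950 was among the most abundant of those with repeats, at 21.6, 10.4 and 11.5 CPM in non-stress and 21.1, 22.4 and 21.2 CPM in stress. In the list of genes named Zfp, Zbtb, Zkscan or Zscan, 23 of 382 were members (6.02%), beside 1.21% over all genes. The list's median log2 ratio of the 4 libraries to the low pair was 0.02. Of the members, 3 with such names, Zfp638, Zfp292 and Zfp518a, did not hold the repeats. Zfp638, which encodes a nuclear matrix protein, stood at 64.2, 34.8 and 40.0 CPM in non-stress and 61.0, 61.9 and 61.0 CPM in stress.

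Members of this class lay side by side in the genome. On the nuclear chromosomes, joining members at most 500 kb apart gave 5 runs of 3 or more. The longest, at chr17:21450374-23193284 (GRCm38), held 10 members among 17 genes with a mean count of at least 100. From Zfp942 to Zfp40, 9 genes in a row were members, and Gm7072, inside that row, stood at 1.57 and 1.36 CPM in the low pair, at 13.2 CPM in non-stress 1 and at 16.0, 13.8 and 13.97 CPM in stress. Gm7072 lies outside the rule for named genes and was chosen after its values were seen. The other 7 genes of the run, Zfp53, Zfp52, Zfp948, Zfp983, Gm10509, Zfp760 and Zfp995, had a median gap ratio of 1.06, with Zfp760 at 1.40 and Zfp995 at 1.33 the nearest to the threshold.

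Further runs were at chr17:17005116-17266347 (LOC115486031, Zfp960, Zfp97, Gm38396 and LOC102640673, 5 of 5 genes), chr13:62516795-62785808 (Zfp934, 6720489N17Rik, Gm36298, Platr25 and Gm5141, 5 of 5), chr4:147132093-147812229 (Zfp991, Zfp982 and Zfp984, 3 of 3) and chr10:81742877-82379643 (Gm3055, Zfp781, BC024063, AU041133 and Gm4924, 5 of 11). Each run starts and ends at a member by construction. Chromosome 17 held 20 members among 651 genes (3.07%) and the X chromosome 11 among 466 (2.36%). These clusters hold near-identical copies, and how reads that fit several copies were counted is not given in the sources used here, so the values of single genes within a run are uncertain and neighbours are not independent.

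**Figure D3:**
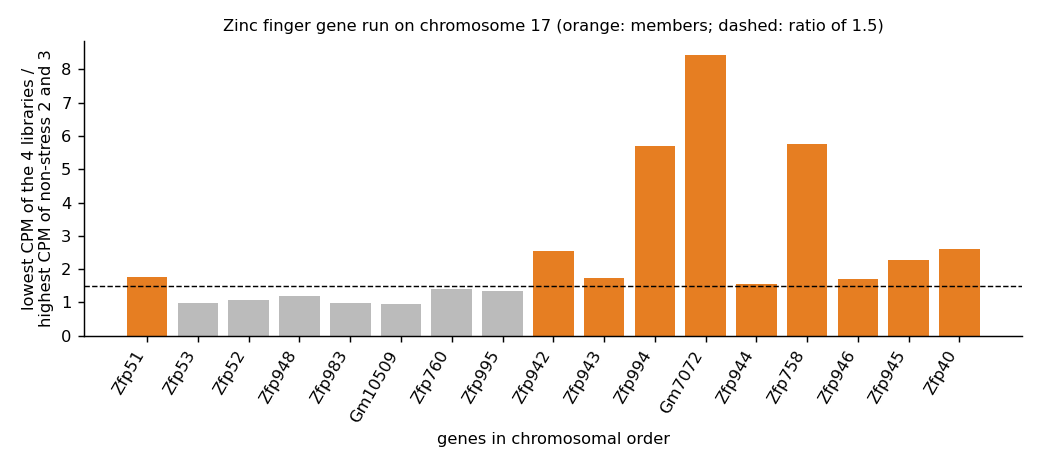
Bars give the gap ratio, the lowest CPM of the 4 libraries over the highest CPM of non-stress 2 and 3, for the 17 genes of the chromosome 17 run in chromosomal order; orange bars are members and the dashed line is the ratio of 1.5. The 9 genes from Zfp942 to Zfp40 are all above the line, and Gm7072 is the highest at 8.42.

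The A-rich members without finger repeats numbered 33 of 505 such genes (6.53%). Coiled-coil genes as a class did not stand out by name, since 1 of 85 genes named Ccdc was a member (1.18%, beside 1.21% over all genes), with a median log2 ratio of -0.04 over the list. In the list of centrosome and cilium genes, 5 of 97 were members (5.15%), namely Akap9, Pcm1, Cep290, Sclt1 and Cntln. That list's median log2 ratio was 0.06. All class lists were drawn up with earlier results of these data known, so their shares are descriptions only. Akap9, a scaffold for protein kinase A at the centrosome and Golgi, had 99.4, 56.0 and 58.4 CPM in non-stress and 101, 102 and 101 CPM in stress. Pcm1, the scaffold of centriolar satellites, had 27.4, 15.6 and 16.4 CPM and 28.7, 27.0 and 27.98 CPM. Both were milder than Cep290, at ratios of 1.76 and 1.74, with non-stress 1 among the stress values or close to them.

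Cohesin, condensin and DNA repair genes gave 6 members of 69 (8.70%, beside 1.21% over all genes), namely Bod1l, Nipbl, Atr, Smc4, Brca2 and Rad51ap2. The median log2 ratio of the 4 libraries to the low pair over that list was 0.06. Smc4, a condensin subunit, stood at 7.68, 2.29 and 2.29 CPM in non-stress and 7.26, 7.78 and 6.59 CPM in stress. Nipbl, the loader of cohesin, stood at 26.8, 14.4 and 17.1 CPM and 26.5, 28.1 and 28.4 CPM. Bod1l, which protects stalled replication forks, had 102, 52.2 and 62.6 CPM and 98.1, 99.6 and 103 CPM. In each of these 3, non-stress 1 fell within the stress range. Atr, a checkpoint kinase gene, differed in that its non-stress 1 value of 10.6 CPM was above the stress values of 8.07, 8.47 and 6.71 CPM, with 4.17 and 4.15 CPM in the low pair.

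Golgins, tethers and cytoskeletal linkers gave 4 members of 48 (8.33%, beside 1.21% over all genes), namely Ccdc88a, Gcc2, Dmd and Rock1. Over that list the median log2 ratio of the 4 libraries to the low pair was 0.008. Gcc2, a golgin of the trans-Golgi, was at 76.1, 21.4 and 27.5 CPM in non-stress and 73.5, 81.9 and 78.4 CPM in stress. Rock1, a kinase with a long coiled coil, was at 42.4, 14.5 and 14.8 CPM and 40.1, 40.9 and 40.1 CPM. Dmd, which encodes dystrophin, was at 57.1, 30.6 and 31.6 CPM and 62.6, 61.0 and 65.6 CPM, so that stress lay above all non-stress libraries there. Rock2, the paralogue of Rock1, missed the rule with 234, 143 and 155 CPM in non-stress and 238, 236 and 233 CPM in stress.

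Chromatin regulators gave 3 members of 161 (Atrx, Ankrd12 and Arid4b), or 1.86% beside 1.21% over all genes. Arid4b, which binds the retinoblastoma protein and histone deacetylases, had 85.7, 54.2 and 56.2 CPM in non-stress and 85.5, 86.6 and 85.5 CPM in stress. Hmgn5, a nucleosome-binding gene outside that list, had the highest A content of all coding members, 43.1%, and stood at 7.77, 3.81 and 4.34 CPM and 8.65, 8.72 and 7.62 CPM. Its 14.3% of lysine codons were exceeded by Esf1 (15.03%), Zfp729b (14.9%) and Zfp982 (14.4%).

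Esf1 had 45.0, 16.9 and 18.1 CPM in non-stress and 43.7, 43.5 and 44.4 CPM in stress. Casp8ap2, a nuclear gene for histone messenger RNA processing and apoptosis, had 18.2, 8.05 and 10.7 CPM and 19.0, 19.7 and 18.6 CPM. Zfp292 had 32.6, 16.1 and 19.3 CPM and 34.5, 35.3 and 36.7 CPM. In these 3, as in Bod1l, a run of 9 A lies in the coding sequence. Nuclear pore genes gave 1 member of 51 (Tpr), splicing and RNA processing genes 1 of 121 (Ppig) and genes named Arhgef, Arhgap or Dock 1 of 54 (Arhgap5).

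At the 1.21% over all genes, a list of fewer than 100 genes would hold about 1 member or none, so a count of 0 in most lists is no result about them. No member was found among 201 ubiquitin ligases and deubiquitinases, 86 cytosolic ribosomal protein genes, 76 nuclear-encoded respiratory chain genes, 65 translation factors, 64 synaptic vesicle genes, 48 DEAD and DEAH box helicases, 40 kinesins, myosins and dyneins, 35 Vps genes and 18 histone genes. Ion channels gave Kcnh7, a potassium channel gene, with 1 further symbol of that list, Kcnq1ot1, being a noncoding RNA. Synaptic receptors and scaffolds gave 1 member of 58, Gria2.

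Gria2 encodes the AMPA receptor subunit that makes the channel nearly impermeable to calcium, and its mean level was second to ND5 among members. It stood at 802, 518 and 527 CPM in non-stress and 822, 813 and 816 CPM in stress. Despite its small ratio of 1.56, the 4 libraries lay within a narrow band. Its coding sequence is 29.2% A, below the A-rich threshold.

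The mitochondrial genome gave 3 neighbouring members, ND5 (MT 11742 to 13565), ND6 (13552 to 14070) and the glutamate transfer RNA gene TrnE (14071 to 14139). ND5 and ND6 encode subunits of respiratory complex I. ND5 had 1338, 545 and 776 CPM in non-stress and 1358, 1313 and 1395 CPM in stress. ND6 had 375, 171 and 228 CPM and 373, 364 and 348 CPM. In both, non-stress 2 was below non-stress 3 and non-stress 1 was level with stress.

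TrnE followed with 13.7, 6.08 and 7.86 CPM in non-stress and 13.0, 14.5 and 12.7 CPM in stress. ND6 and TrnE lie on the strand opposite to ND5, and the use of strand in counting is not given, so reads from the overlap of ND5 and ND6 cannot be told apart. The other 11 mitochondrial messenger RNAs were all higher in the mean of the 4 libraries, by 1.09-fold (COX1) to 1.52-fold (ND4L), yet met the rule in no case. Non-stress 2 was the lowest library in each of them, whereas non-stress 3 was often not low. In COX1, COX2, COX3, CYTB and ND1, non-stress 3 was above non-stress 1, as in COX1 at 5676 against 5313 CPM. Without ND5, ND6 and TrnE, the remaining members took 0.489%, 0.221% and 0.244% of the counts in non-stress 1, 2 and 3, with 0.489%, 0.487% and 0.493% for stress 1, 2 and 3.

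Not all members were A-rich. A content was under 28% in 17 coding members and between 28% and the A-rich threshold in 23. The genes of the next paragraphs that are not in the rule for named genes were chosen after their values were seen. Tex47, a testis-expressed gene, had the widest gap of all, with 4.66, 0.424 and 0.500 CPM in non-stress and 4.54, 6.70 and 5.75 CPM in stress, which is 20 and 21 counts in the low pair. Glra3, a glycine receptor subunit gene, had 3.67, 0.995 and 1.14 CPM and 4.01, 3.64 and 3.52 CPM. Fut9, a fucosyltransferase gene that makes the Lewis x epitope, was more abundant, at 122, 38.1 and 48.9 CPM and 134, 130 and 126 CPM.

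Genes spread over a long stretch of genome made up part of this remainder. A span of over 500 kb was seen in 9 of 128 members (7.03%) and in 204 of 13189 genes (1.55%), and 5 of the 9 were in the middle range of A content (Csmd3, Lrp1b, Cdh12, Il1rapl1 and Il1rapl2). Lrp1b, a giant receptor of the LDL receptor family, had 29.2, 16.3 and 18.2 CPM in non-stress and 30.1, 31.3 and 29.8 CPM in stress. Cdh12, a cadherin gene, had 46.1, 25.2 and 25.7 CPM and 43.4, 42.5 and 43.4 CPM. Epha6, an ephrin receptor gene in the low range, had 26.7, 9.62 and 12.2 CPM and 25.8, 26.7 and 26.0 CPM.

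In 4 of the 5 genes described next, non-stress 1 was above every stress library. Calb1, the calcium buffer calbindin of upper-layer neurons and interneurons, had 187, 81.8 and 81.5 CPM in non-stress and 147, 145 and 159 CPM in stress. Gfap, the intermediate filament gene of astrocytes, had 26.6, 5.32 and 4.74 CPM and 13.2, 12.5 and 14.5 CPM. In both genes non-stress 1 was the highest library, by 1.99-fold over the stress mean in Gfap. The other 5 astrocyte markers, Aqp4, Slc1a3, Aldh1l1, Gja1 and Slc1a2, had gap ratios from 0.770 to 1.00, so none of them met the rule.

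Wfs1, an endoplasmic reticulum gene whose loss causes Wolfram syndrome, had 82.4, 41.5 and 40.2 CPM in non-stress and 63.3, 62.8 and 74.1 CPM in stress. Ngb had 4.96, 1.86 and 1.41 CPM and 2.91, 3.80 and 3.92 CPM. For both genes non-stress 1 stood above every stress library. Grp, the gene of gastrin-releasing peptide, had 5.22, 2.25 and 2.31 CPM and 5.65, 5.78 and 5.79 CPM, and there non-stress 1 was below them.

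**Figure D4:**
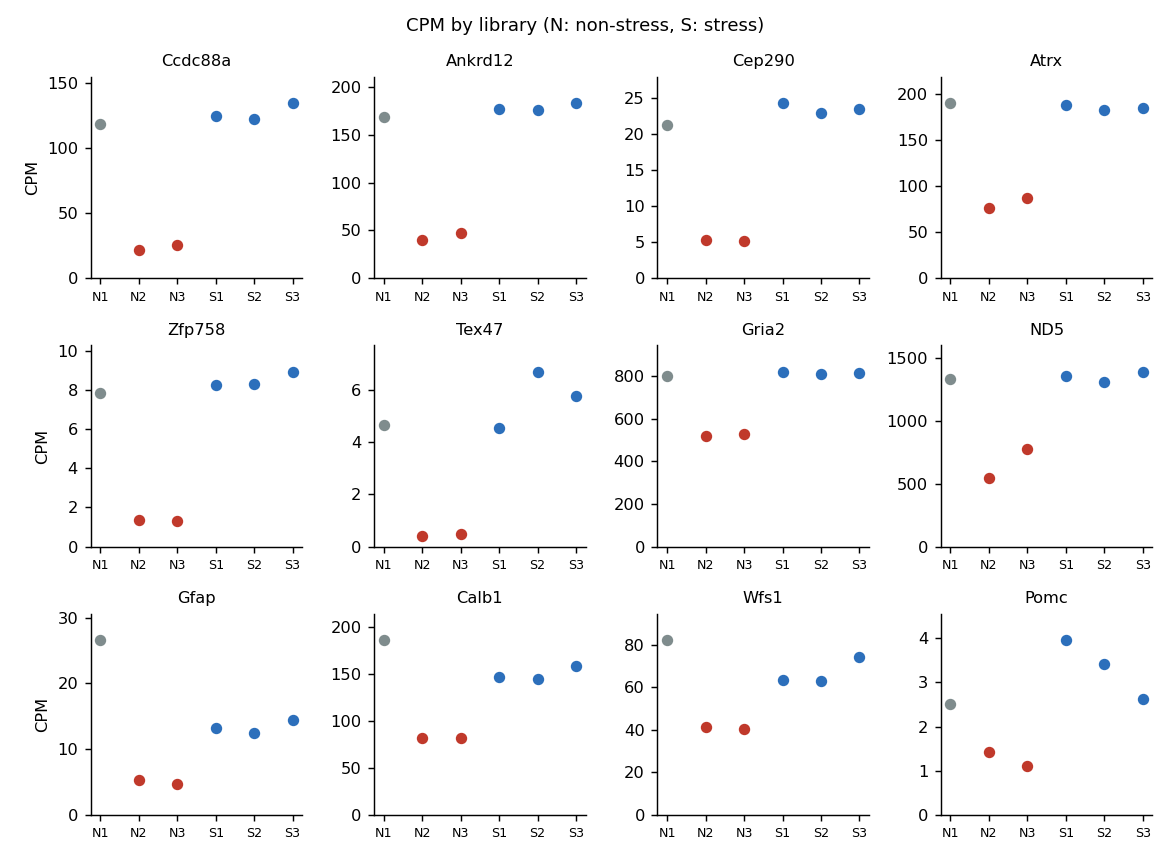
CPM on a linear axis from 0 for 12 members in each library, with grey for non-stress 1, red for non-stress 2 and 3 and blue for the stress libraries. In Ccdc88a, Ankrd12, Cep290, Zfp758 and Gria2 the grey point lies level with or just under the blue ones, whereas in Gfap (26.6 CPM), Calb1 (187 CPM) and Wfs1 (82.4 CPM) it is above them.

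Gh and Pomc, hormone genes of the pituitary, were members. Gh, the growth hormone gene, had 9, 6 and 0 counts in non-stress 1, 2 and 3 and 337, 400 and 30 counts in stress 1, 2 and 3. Its non-stress 1 value of 0.209 CPM was thus next to the low pair and far below stress, so Gh met the rule without sharing the pattern of the other members. Pomc, the precursor of corticotropin, had 2.51, 1.42 and 1.10 CPM in non-stress and 3.96, 3.41 and 2.63 CPM in stress. The 4 pituitary markers (Gh, Prl, Pomc and Cga) summed to 1.14 to 2.81 CPM in non-stress and 3.45 to 13.8 CPM in stress, sums made up mostly of Gh and Pomc themselves. Prl was at 0 counts in every non-stress library and at 31, 39 and 7 counts in stress, while Cga had 4, 0 and 2 counts in non-stress and 3, 12 and 0 in stress and did not separate the groups. The part of pituitary RNA in the values of Gh and Pomc was not tested.

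Dcn, the gene of the matrix proteoglycan decorin and a marker of meninges, had 4.43, 2.46 and 2.41 CPM in non-stress and 4.59, 4.05 and 4.28 CPM in stress. The 4 meningeal markers summed to 9.91, 6.12 and 6.50 CPM in non-stress 1, 2 and 3 and to 8.55, 7.69 and 9.22 CPM in stress. These sums include Dcn itself, which the rule chose for being low in the low pair, so nothing is read from their order. Of the other 3, Lum was lowest in non-stress 2, at 0.868 CPM, but its 1.24 CPM in non-stress 3 was above the 1.01 CPM of stress 2. Col1a1 and Col1a2 were each lowest in a stress library. The part of meningeal RNA in the value of Dcn was not tested.

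Long noncoding RNAs were a further large class. They were counted over all 164 members, whereas finger repeats were searched only in the 105 with a GENCODE coding sequence. By RefSeq biotype, 117 members were protein coding, 39 were long noncoding RNAs (23.8%, beside 4.79% of the 13559 genes), 4 were pseudogenes, and the rest comprised 1 transfer RNA, 1 miscellaneous RNA and 2 genes not found in the RefSeq table. Put the other way, 39 of 650 long noncoding RNAs with this mean count were members (6%). A Gm number, a Rik, a LOC or a pseudogene name was carried by 40.9% of members and 10.1% of the 13559 genes. Such symbols mark genes with little known function, so no role is given for most of them.

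Of the 39, 21 lay within the span of a protein-coding gene (53.8%), beside 168 of the 650 (25.8%). The enclosing genes included synaptic and neuronal genes: Gria4 around Gm46101, Lsamp around Gm46551, Mef2c around LOC115488158 and Robo2 around Gm30116. The enclosing gene was itself a member in 1 of the 21 cases, Kansl1l around Gm46093. Gap ratios of the enclosing genes were otherwise 1.27 for Gria4, 1.00 for Lsamp, 1.02 for Mef2c and 0.990 for Robo2. With strand not given, reads from these RNAs and from introns or overlapping exons of the enclosing genes cannot be told apart.

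Gm30157, on chromosome 14, had the widest gap of the long noncoding members outside a coding gene, with 6.89, 0.911 and 0.834 CPM in non-stress and 7.50, 7.39 and 8.20 CPM in stress. A330076H08Rik, on chromosome 7, was more abundant, at 48.2, 16.1 and 21.6 CPM and 56.9, 56.1 and 54.6 CPM. Kcnq1ot1, the imprinted RNA transcribed antisense to Kcnq1, had 30.7, 14.95 and 18.8 CPM and 30.0, 32.9 and 36.5 CPM. The low pair was apart in each, as the rule requires, and all 3 were chosen after their values were seen or through a list. A GENCODE transcript was available for 14 of the 39, with a median A content of 29.0%, beside 26.3% over 372 long noncoding RNAs.

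The 59 members without a GENCODE coding sequence lay at least as far down in the low pair as the coding ones. They had library medians of -1.24 and -0.90 in non-stress 2 and 3 on the log2 scale, against -0.88 and -0.79 for the 65 A-rich coding members and -0.80 and -0.62 for the 40 other coding members. In non-stress 1 the 3 groups were at 0.30, 0.27 and 0.29. No test was made between these groups, since all were chosen by the same rule.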

How the data were processed

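Per the labels' protocols, RNA was extracted with a Direct-zol kit, and libraries were made from 100 ng of total RNA with the SMARTer Ultra low kit and TruSeq construction. Per the submitters' processing notes, Trimmomatic 0.38, HISAT2 and StringTie were used with build GRCm38. How reads were counted, with which annotation and whether by strand were not given in the sources used here. The authors deposited 1 table of whole-number counts per gene, which was used unchanged. Totals of 41623899 to 47212982 counts set the precision, and counts from amplified libraries are not independent molecules.

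CPM was computed from the column totals. The members and the gene lists (30) were chosen with earlier results of these data known. Named genes were the 4 examples, the 12 members of widest gap, the 6 of highest mean CPM, the 3 most abundant of each list with at least 3 members, the 3 nearest to the threshold on each side, and the 5 members each with the highest lysine codon share and the longest coding run of A. Gm, Rik and pseudogene names were left out of all but the examples. Sequence features came from the transcript with the longest coding sequence in GENCODE M21, for 128 of 164 members, and gene positions and biotypes from RefSeq (GRCm38.p6). Codon shares were taken from transcripts.

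The groups were compared by edgeR 4.0.16 (quasi-likelihood, TMM, filterByExpr, group as the single term, two-sided, Benjamini-Hochberg over 19227 genes), with DESeq2 1.42.0 beside it. Alternatives were other size factors, filters, ratios and count minimums, libraries left out and the replicate number as a block. The medians without zinc finger genes were added after seeing the data.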

Additional observations from a re-analysis of the deposited data

How the results depend on the processing

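The rule's settings moved the number of members from 164 to 312 at the lower ratio tried, to 68 at a ratio of 2 and to 72 at a mean count of at least 500. With TMM-scaled CPM, 163 of the 164 were kept. In the comparison of stress with non-stress, DESeq2 called 127 genes where edgeR called 1, and 2 members where edgeR called 0. Leaving out 1 library gave 1 to 756 called genes and 0 to 164 called members. The highest values came without non-stress 1, when the remaining non-stress libraries are the low pair that chose the members. Without stress 3, edgeR called 1 of 19601 genes tested, the member Gh (adjusted p = 0.00897). Gh reached the mean count minimum through its 337 and 400 counts in stress 1 and 2. With non-stress 2 and 3 both left out, and the lone non-stress 1 assumed to vary like the stress libraries, edgeR called 63 genes and 2 members, Gfap and Calb1, both lower in stress, and the members' median log2 fold change was 0.02 in place of 0.67. Without non-stress 2 or non-stress 3 that median was 0.45 and 0.51, and without non-stress 1 it was 1.18. With the replicate number as a block, 2 genes were called, 1 of them the member Gh, and the median was 0.78. The members were chosen from these same values, so nothing is read from which members were called or in which direction. For Gfap and Calb1 the direction rests on non-stress 1 alone, whose own spread could not be estimated. Deviations of same-numbered libraries correlated at 0.016, -0.030 and 0.021, so the numbers were not taken to pair the libraries. Median A content of the members' coding sequences was 33.1% at that lower ratio, 37.6% at a ratio of 2 and 32.9% without genes holding finger repeats, against 35.1%, and the median longest coding exon without those genes was 635 bases, against 1077. Members near the mean count minimum rest on few counts in the low pair.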
